A study of Mus musculus with 4 samples.

Results

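Genes that copy DNA and genes that divide the chromosomes were examined in tumours of the mouse melanoma line B16-F10, grown for 10 days in 2 mice without VAP-1 and in 2 wild-type mice. The set was a list of 44 genes given by name, 20 of DNA replication and 24 of mitosis and the kinetochore, and the rule used no measured value, although earlier results of these data were known when the set was proposed. Of the 44 genes, 38 had a probe that the platform annotation named, out of 17711 genes named on the array, and each gene was read from its brightest probe by mean log2 value. The brightest probe passed the filter on low signal for 35 of the 38, which were 17 replication and 18 mitosis genes, out of 13230 genes tested. The genes Mcm3, Gins1, Ccnb1, Cenpf, Kif20a and Mki67 had no named probe, so their expression is not analysed here.

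The knockout group was VAP-1 -/- mice, replicates 1 and 2, and the control group was wild-type mice, replicates 2 and 3. Both groups received the same B16-F10-luc-G5 cells, which carry luciferase, under the skin of the abdomen, with no other treatment named, and their tumours were profiled on 1 Illumina bead array each. The genotype is therefore that of the host, while the tumour cells are 1 line common to all 4 tumours. The sources used here do not give strain, sex or age of the mice, nor the kind of VAP-1 deletion.

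A cell prepares to copy its DNA by loading the MCM helicase onto replication origins with the help of Cdc6 and Cdt1, and cyclin E with its kinase then starts S phase. DNA polymerase alpha and primase begin each strand, the clamp PCNA, loaded by replication factor C, holds the polymerases on it, and Fen1 and DNA ligase I join the pieces. In mitosis cyclin B with Cdk1, Polo and Aurora kinases build the spindle, the kinetochore ties chromosomes to it, the checkpoint holds the anaphase-promoting complex until all are attached, and Prc1 and Kif23 organise the spindle midzone for cell division.

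Median unnormalized signal lay between 64.81 and 68.27 on the knockout arrays and between 55.31 and 63.34 on the wild-type arrays. Aoc3, which encodes VAP-1, stood at log2 signals of 7.29 and 7.16 in knockout tumours, against 8.01 and 7.18 in wild-type tumours. One wild-type array lay at the knockout level, the probe's place relative to the deletion is not known here, and the gene does not check the genotypes. All 7 melanocyte markers passed the filter on low signal, and Dct, a pigment enzyme gene, had 14.63 and 14.39 in knockout tumours, against 14.51 and 14.41 in wild-type tumours. Other markers of the list differed more, with Sox10 at 0.84 ± 0.20, Tyrp1 at 0.56 ± 0.27 and Tyr at -0.50 ± 0.23 (knockout minus wild type, SE), each without overlap. Markers of other cells differed between the arrays. Against the mean of the wild-type arrays, the median of 12 keratinocyte markers (all 12 named were tested) stood at 1.48 and 0.14 on knockout arrays 1 and 2, with a summed level of 14.76 and 13.47 on the log2 scale, against 13.33 and 13.29 on the wild-type arrays. The median of 11 skeletal muscle markers of 11 named stood at 0.78 and 0.30, with sums of 13.47 and 12.51 in knockout tumours, against 12.19 and 12.12 in wild-type tumours. Erythroid and granulocyte markers had lower medians. The median of 5 erythroid markers of 6 named stood at -0.83 and -1.83, with sums of 15.09 and 14.29 in knockout tumours, against 16.12 and 16 in wild-type tumours. That of 7 granulocyte markers of 10 named stood at -0.69 and -0.55, with sums of 9.63 and 9.71 in knockout tumours, against 11.23 and 11.81 in wild-type tumours. Median differences of the other marker lists were 0.08 for melanocytes, -0.12 for macrophages, 0.07 for lymphocytes, -0.27 for endothelium and 0.24 for fibroblasts. The part of these cells in the differences below was not tested, and in whole tumours fewer cells of a type and less RNA per cell cannot be told apart.

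Replication genes were lower in knockout tumours more often than higher, while mitosis genes went both ways, and no gene passed the adjusted test. By limma with Benjamini-Hochberg adjustment over all 27979 probes, 0 of 35 members passed an adjusted p of 0.05, as did 0.0% of all genes. At an unadjusted p under 0.05, 5 of 17 replication genes were lower in knockout tumours, which is 29.4%, beside 9.98% of all genes tested, and 0 were higher, beside 10.5% of all genes. At the same level 4 of 18 mitosis genes were higher in knockout tumours, which is 22.2%, and 0 were lower. In either direction, 20.5% of all genes had an unadjusted p under 0.05. Without wild-type replicate 2 the log2 differences of Cenpe and Kif23 were 1.07 and 0.95, against 0.91 and 0.66 with all 4 arrays. In that fit the spread between tumours of a group is seen in the knockout pair alone, and limma joins it to a prior over all kept probes. The single wild-type array is assumed to vary like the pair. Over the alternatives that kept all 4 arrays, the limma adjusted p ran from 0.0665 to 0.15 for Cenpe and from 0.149 to 0.524 for Kif23.

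The median log2 difference (knockout minus wild type) was -0.30 over the 17 replication genes, with a range of -0.64 to 0.10. It was 0.09 over the 18 mitosis genes, with a range of -0.40 to 0.91, and -0.03 over all genes tested. A difference below 0 was found for 15 of 17 replication genes, 8 of 18 mitosis genes and 54.1% of all genes. Both knockout arrays lay below both wild-type arrays for 8 of 17 replication genes, which is 47.1%, beside 27.7% of all genes. Both lay above both wild-type arrays for 6 of 18 mitosis genes, which is 33.3%, beside 23.4% of all genes, and below them for 3. The groups were apart in either direction for 51.1% of all genes. The direction of the replication genes depended on how arrays are brought to 1 scale. When arrays were scaled to a common median, their median was 0.03 with 7 of 17 below 0, and all genes had a median of 0.12 with 32.7% below 0. Under scaling by the 75th percentile it was -0.20, and all genes had a median of -0.11 with 61.8% below 0. Set against the median of all genes under the same scaling, the replication genes stood at -0.27 after quantile normalization and at -0.09 after either of the other scalings, or -0.22 when these were joined to a filter at the 70th percentile, chosen after seeing the data. The replication count of 5 at an unadjusted p under 0.05 was 0 under both other scalings. The share of all genes at that level under those scalings is not given here, so the drop has no background beside it.

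**Figure D1:**
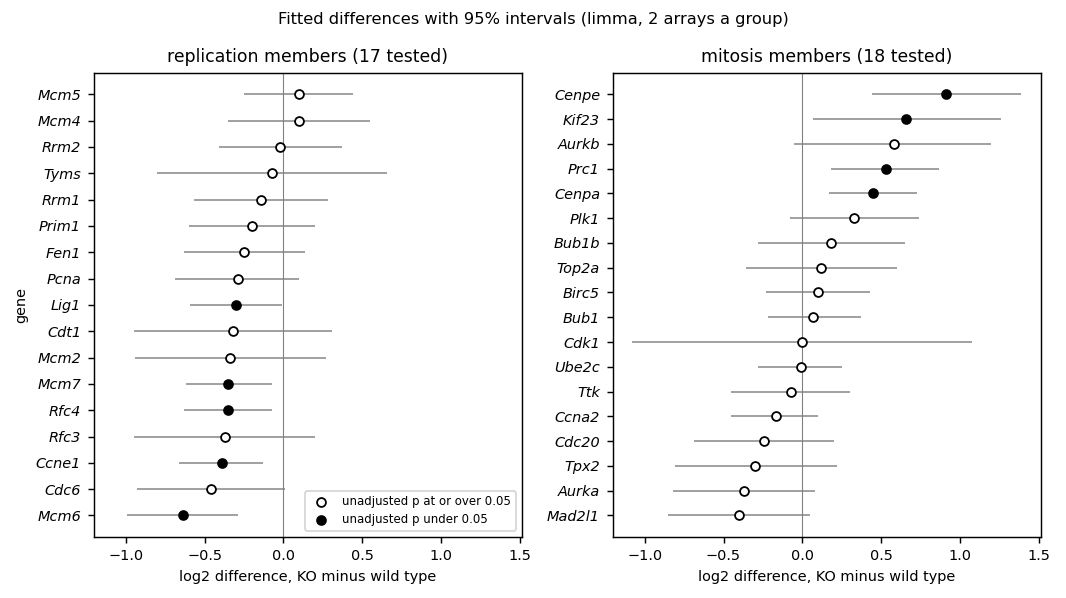
Difference between knockout and wild-type tumours (knockout minus wild type, log2 scale) for the tested members, in 1 panel for 17 replication genes and 1 for 18 mitosis genes. Points are the differences after quantile normalization, filled where the unadjusted p is under 0.05, and bars are 95% intervals of the limma fit with 2 tumours a group. Replication genes run from -0.64 at Mcm6 to 0.10 and mitosis genes from -0.40 at Mad2l1 to 0.91 at Cenpe.

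The promoters of the 2 gene classes held the letters of cell cycle motifs in different shares. The classes follow known roles of the genes, and whether that split is independent of these motifs was not tested. RefSeq promoters of GRCm38.p6, each 300 bases from 250 before to 50 after the gene's start, were given for 38 of the 44 members, which were 34 of the members with a named probe and 4 without one (Mcm3, Ccnb1, Cenpf and Mki67). They were searched on both strands for the CCAAT box, for the cell cycle genes homology region (CHR, as TTTGAA or TTCGAA), and for E2F letters (TTGGCGC or TTCCCGC or TTGCCGC or TTCGCGC). E2F letters stood in 16 of 22 promoters of 18 replication members, or 72.7%, in 3 of 21 of 20 mitosis members, or 14.3%, and in 9.57% of all 32851 promoters given. CHR letters stood in 17 of 21 mitosis promoters, or 81.0%, in 4 of 22 replication promoters, or 18.2%, and in 19.2% of all. CCAAT stood in 19 of 21 mitosis promoters, or 90.5%, in 12 of 22 replication promoters, or 54.5%, and in 37.4% of all. A match describes the letters and is no measured binding site. The 150 bases before the start are printed 5′ to 3′ on the gene's strand, with searched letters in capitals, for 2 of the 5 replication genes with an unadjusted p under 0.05, the MCM genes Mcm6 (chr1:128359706-128359855, minus strand) and Mcm7 (its second listed start, chr5:138171267-138171416, minus strand), chosen because their stretches hold E2F letters. They are also printed for the 4 mitosis genes with an unadjusted p under 0.05, Cenpe (chr3:135212413-135212562, plus strand), Cenpa (chr5:30666736-30666885, plus strand), Kif23 (chr9:61946800-61946949, minus strand) and Prc1 (its second listed start, chr7:80294326-80294475, plus strand).
Mcm6: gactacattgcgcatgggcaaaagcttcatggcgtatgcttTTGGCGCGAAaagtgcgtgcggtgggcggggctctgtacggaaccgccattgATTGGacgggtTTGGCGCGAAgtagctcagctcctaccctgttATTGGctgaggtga
Mcm7: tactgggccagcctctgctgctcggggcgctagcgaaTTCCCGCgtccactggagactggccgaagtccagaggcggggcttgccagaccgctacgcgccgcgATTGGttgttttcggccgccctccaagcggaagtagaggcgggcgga
Cenpe: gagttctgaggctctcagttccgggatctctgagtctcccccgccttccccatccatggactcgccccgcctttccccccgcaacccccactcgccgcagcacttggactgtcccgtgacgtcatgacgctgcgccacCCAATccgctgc
Cenpa: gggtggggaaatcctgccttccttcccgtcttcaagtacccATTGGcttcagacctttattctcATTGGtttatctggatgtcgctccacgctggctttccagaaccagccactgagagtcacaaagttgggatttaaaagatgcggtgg
Kif23: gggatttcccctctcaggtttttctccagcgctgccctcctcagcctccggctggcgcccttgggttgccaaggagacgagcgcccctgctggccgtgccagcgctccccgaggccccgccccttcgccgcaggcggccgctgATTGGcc
Prc1: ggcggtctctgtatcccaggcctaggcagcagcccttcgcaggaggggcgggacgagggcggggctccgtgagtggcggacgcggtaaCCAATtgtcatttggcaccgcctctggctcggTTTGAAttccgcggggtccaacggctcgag
The Mcm6 stretch holds E2F letters at 2 places, each read on both strands so that the matches overlap, and 2 CCAAT boxes, and the Mcm7 stretch holds 1 of each. The Cenpe stretch holds CCAAT and neither of the other motifs, as does that of Cenpa, whose CHR letters start at position 16 after the start. The Kif23 stretch also holds only CCAAT, and its CHR letters start at position 2 after the start. The Prc1 stretch holds both CCAAT and CHR letters. Among the stretches not printed, those of Ccne1, Lig1 and Rfc4 hold none of the letters, and those at the first listed starts of Mcm7 and Prc1 hold CCAAT alone. In the full promoters, E2F letters of Rfc4 start at position 11 after the start. Those of Lig1 start at positions 26 and 42 in chr7:13278576-13278875 and at 3 in chr7:13279015-13279314. The remaining Lig1 promoter and that of Ccne1 hold none of the letters. At its first listed start Mcm7 also has E2F letters at -165, 17 and 20 and CHR letters at -173. Prc1 has CHR letters from -5 at its first listed start, across the end of the stretch.

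Of the MCM helicase genes, 5 were tested, and 3 had lower and 2 slightly higher means in knockout tumours. Mcm6, a helicase subunit, had a log2 signal of 9.42 and 9.65 in knockout tumours, against 10.24 and 10.11 in wild-type tumours. Both knockout tumours lay below both wild-type tumours, and the mean was 1.56-fold lower, by a log2 difference of -0.64 ± 0.13 (SE, 2 tumours a group) with a 95% interval of -0.99 to -0.29 and limma adjusted p = 0.146. Under the other scalings it was -0.30 and -0.53. Mcm7, a further subunit, had 9.74 and 9.84 in knockout tumours, against 10.12 and 10.15 in wild-type tumours. Here too the groups did not overlap, with a difference of -0.35 ± 0.10 (SE) and limma adjusted p = 0.224, and it was -0.04 under median scaling. Mcm2 had 10.79 and 10.98 in knockout tumours, against 11.52 and 10.93 in wild-type tumours. Its groups overlapped, since wild-type replicate 3 lay between the knockout tumours, and its difference of -0.34 ± 0.23 was -0.05 without wild-type replicate 2 and -0.63 without wild-type replicate 3. Mcm4 had 11.50 and 11.52 in knockout tumours, against 11.61 and 11.20 in wild-type tumours, and Mcm5 had 11.87 and 11.93 in knockout tumours, against 11.93 and 11.68 in wild-type tumours. Both differed by 0.10 (SE 0.17 for Mcm4 and 0.13 for Mcm5), less than the gap between their wild-type tumours, and under 75th percentile scaling the sign turned, to -0.01 for Mcm4 and -0.09 for Mcm5.

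The origin and S-phase start genes were all lower in mean. Ccne1, which encodes cyclin E1, the activator of Cdk2, had 8.34 and 8.37 in knockout tumours, against 8.71 and 8.78 in wild-type tumours. The groups did not overlap and each pair was tight, and the difference was -0.39 ± 0.10 with a 95% interval of -0.66 to -0.13 and limma adjusted p = 0.182. Under median scaling Ccne1 stood at 0.03, and its promoter in the table held none of the 3 motifs. Cdc6, which loads the helicase, had 7.48 and 7.92 in knockout tumours, against 8.19 and 8.12 in wild-type tumours. It differed by -0.46 ± 0.18 without overlap, and its interval of -0.93 to 0.01 included 0. Cdt1, its partner in loading, differed by -0.32 ± 0.24 with overlapping groups.

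All 6 fork genes tested had lower means in knockout tumours. Lig1, which encodes DNA ligase I, had 9.76 and 9.91 in knockout tumours, against 10.13 and 10.13 in wild-type tumours. Rfc4, a clamp loader subunit, had 9.65 and 9.67 in knockout tumours, against 9.94 and 10.07 in wild-type tumours. Neither pair of groups overlapped, and the differences were -0.30 ± 0.11 for Lig1 and -0.35 ± 0.11 for Rfc4, with limma adjusted p of 0.299 and 0.233. Under median scaling they were 0.01 and -0.03. Pcna, the clamp itself, had 7.22 and 7.26 in knockout tumours, against 7.37 and 7.70 in wild-type tumours. Fen1, the flap nuclease, had 10.74 and 10.68 in knockout tumours, against 11.12 and 10.80 in wild-type tumours. Both were lower in both knockout tumours, with differences of -0.29 ± 0.15 for Pcna and -0.25 ± 0.15 for Fen1, and 1 wild-type tumour lay close to the knockout level in each. Rfc3, another loader subunit, differed by -0.37 ± 0.22 and Prim1, the primase subunit, by -0.20 ± 0.15, with overlapping groups. Pola1, of polymerase alpha, was near the floor of the array and was not tested.

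Genes that supply nucleotides differed by less than the spread between tumours. Rrm1, the large subunit of ribonucleotide reductase, had 11.06 and 11.34 in knockout tumours, against 11.47 and 11.22 in wild-type tumours. Rrm2, the small subunit, had 10.38 and 10.63 in knockout tumours, against 10.42 and 10.62 in wild-type tumours. Their groups overlapped, and the differences were -0.14 ± 0.16 for Rrm1 and -0.02 ± 0.15 for Rrm2. Tyms, thymidylate synthase, had 9.41 and 9.65 in knockout tumours, against 9.23 and 9.96 in wild-type tumours. The wild-type tumours enclosed the knockout ones, and the difference of -0.07 ± 0.28 was 0.30 without wild-type replicate 3, 0.29 under median scaling and 0.07 under 75th percentile scaling.

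**Figure D2:**
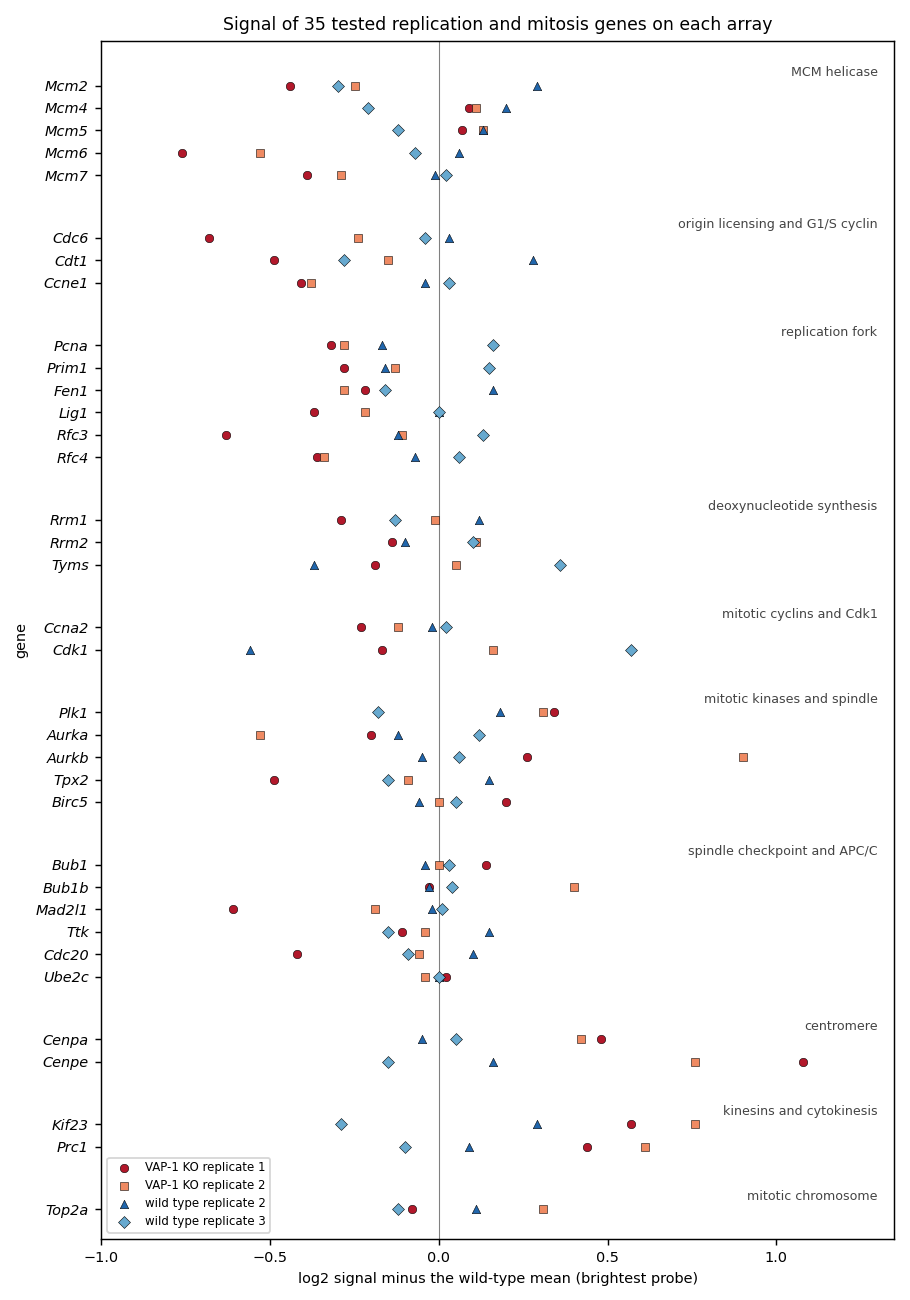
Log2 signal of the brightest probe of each of the 35 tested members, as the distance from the wild-type mean on the horizontal axis, with genes down the page grouped by role. Each symbol is 1 tumour, circles and squares for knockout replicates 1 and 2, triangles and diamonds for wild-type replicates 2 and 3. After quantile normalization Mcm6, Mcm7, Ccne1, Lig1 and Rfc4 lie lower in both knockout tumours, and Cenpa, Cenpe, Kif23 and Prc1 lie higher in both.

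The 4 mitosis genes with an unadjusted p under 0.05 were 2 of the centromere and kinetochore and 2 of the spindle midzone, all with higher means in knockout tumours. Cenpe, a kinesin that moves chromosomes at the kinetochore, had a log2 signal of 11.26 and 10.94 in knockout tumours, against 10.34 and 10.03 in wild-type tumours. The groups were 0.91 ± 0.18 apart (SE, 2 tumours a group), or 1.88-fold, with a 95% interval of 0.44 to 1.39 and limma adjusted p = 0.14. Cenpa, the histone H3 variant that marks centromeres, had 12.88 and 12.82 in knockout tumours, against 12.35 and 12.45 in wild-type tumours. Its pairs were tight and the difference was 0.45 ± 0.11 (95% interval 0.17 to 0.73), with limma adjusted p = 0.169, and under 75th percentile scaling the difference was 0.14. Kif23, the motor of the midzone complex centralspindlin, had 10.84 and 11.03 in knockout tumours, against 10.56 and 9.98 in wild-type tumours. The difference of 0.66 ± 0.23 (limma adjusted p = 0.268) depended on the wild-type tumours, being 0.37 without wild-type replicate 3 and 0.95 without wild-type replicate 2. Prc1, which bundles midzone microtubules, had 12.25 and 12.42 in knockout tumours, against 11.90 and 11.71 in wild-type tumours. It was 0.53 ± 0.13 apart without overlap, or 1.44-fold, with limma adjusted p = 0.177, and the difference was 0.30 under 75th percentile scaling and 0.27 with probes averaged. The count of 4 was 1 without knockout replicate 2 and 2 under 75th percentile scaling. The replication count of 5 became 1 with knockout replicate 1 left out and 3 with knockout replicate 2 left out.

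The mitotic kinase genes stood on both sides of wild type. Aurkb, the kinase of the chromosomal passenger complex, had 9.06 and 9.70 in knockout tumours, against 8.75 and 8.86 in wild-type tumours. Aurka, the kinase of spindle poles, had 10.48 and 10.15 in knockout tumours, against 10.56 and 10.80 in wild-type tumours. The 2 Aurora genes went opposite ways, by 0.58 ± 0.24 for Aurkb and -0.37 ± 0.17 for Aurka, each without overlap and each with an unadjusted p above 0.05. Plk1, the Polo kinase, had 11.31 and 11.28 in knockout tumours, against 11.15 and 10.79 in wild-type tumours, a difference of 0.33 ± 0.15 that was 0.15 without wild-type replicate 3 and 0.51 without wild-type replicate 2. Tpx2, which activates Aurora A on the spindle, differed by -0.30 ± 0.19 with overlapping groups. Birc5, the passenger subunit survivin, had 11.54 and 11.34 in knockout tumours, against 11.28 and 11.39 in wild-type tumours. The groups overlapped, and the difference of 0.10 ± 0.12 was -0.02 under 75th percentile scaling.

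Cdk1, the mitotic cyclin-dependent kinase, had 9.59 and 9.92 in knockout tumours, against 9.20 and 10.33 in wild-type tumours. The wild-type tumours differed from each other by more than any knockout tumour differed from them, and the difference of 0.00 ± 0.41 had an interval of -1.08 to 1.08. Ccna2, cyclin A2, was dim and differed by -0.17 ± 0.10, and Ccnb2, cyclin B2, was below the filter. Of the checkpoint genes, Mad2l1, which encodes the inhibitor Mad2, had 7.56 and 7.98 in knockout tumours, against 8.15 and 8.18 in wild-type tumours. It was lower in both knockout tumours, with a difference of -0.40 ± 0.17, the lowest difference among the mitosis members. Bub1b, the checkpoint partner BubR1, differed by 0.18 ± 0.17, Bub1 by 0.07 ± 0.11, and Ttk, the kinase Mps1, by -0.07 ± 0.14. Cdc20, the activator of the anaphase-promoting complex, had 9.75 and 10.11 in knockout tumours, against 10.27 and 10.08 in wild-type tumours. Its difference of -0.24 ± 0.17 turned to 0.07 under median scaling, and its other tested probes stood at 0.40 ± 0.26 and 0.30 ± 0.25. Ube2c, the complex's ubiquitin carrier, was dim and differed by -0.01 ± 0.10. Top2a, the topoisomerase that untangles sister chromatids, differed by 0.12 ± 0.18, and the spindle motor gene Kif11 was not tested.

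Probes of the same gene did not all go with the brightest one. Besides the brightest, 13 further probes of replication members were tested, of which 5 were below 0 and 8 above. The 8 above 0 were dim, with group means from 6.04 (Mcm4, wild type) to 6.89 (Lig1, knockout). The 5 below 0 were brighter, with group means of 7.14 (Rfc3, knockout) and up. Of 12 further probes of mitosis members tested, 3 were below 0 and 9 above. With the brightest included, 20 of 30 replication probes were below 0, and 19 of 30 mitosis probes above. Mcm7 had a second probe with 7.80 and 7.61 in knockout tumours, against 8.25 and 9.46 in wild-type tumours, a difference of -1.15 ± 0.42. That of Mcm6, at 9.48 and 9.91 in knockout tumours, against 9.74 and 9.98 in wild-type tumours, overlapped and differed by -0.16 ± 0.19. Second probes of Ccne1 and Rfc4, both near the floor, differed by 0.06 ± 0.12 and 0.02 ± 0.14. The other probes of Lig1 disagreed with each other, at -0.26 ± 0.21 and 0.43 ± 0.14. The latter was higher in both knockout tumours (limma unadjusted p = 0.0294), opposite to the brightest probe by which Lig1 was counted as lower. Among the higher mitosis genes, the second Cenpa probe differed by 0.32 ± 0.22 with overlapping groups. The other probes of Kif23 (0.09 and -0.02) and Prc1 (0.01) and the untested second probe of Cenpe all lay near the floor, where differences are compressed. When all tested probes of a gene were averaged, dim ones included, the replication median was -0.20, with 13 of 17 below 0, and the difference of Kif23 was 0.24.

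**Figure D3:**
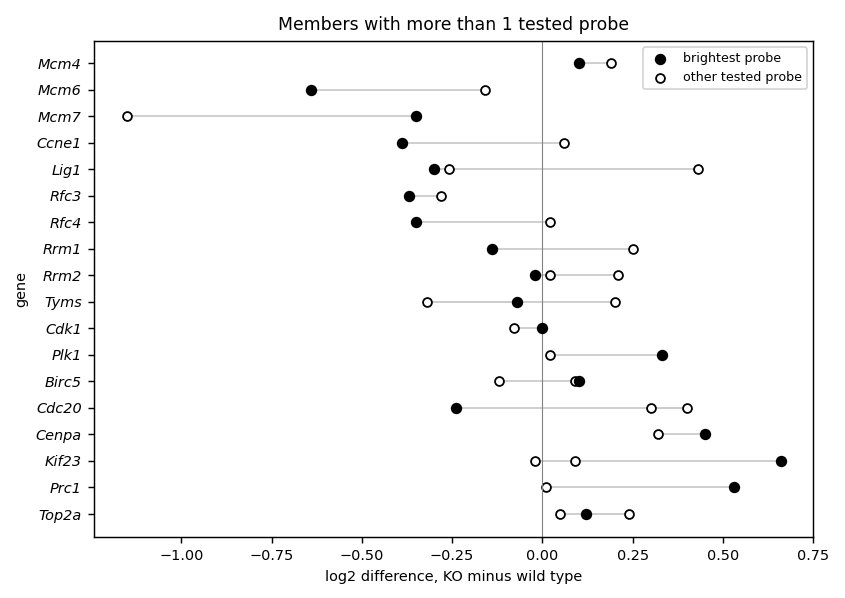
Difference between knockout and wild-type tumours (knockout minus wild type, log2 scale) of each tested probe, 1 row for each of the 18 members with more than 1 tested probe. Filled points are the brightest probe and open points the others. For Kif23 and Prc1 the brightest probe lies well above the others, which are near 0.

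The lower replication values were not alike on the 2 knockout arrays. The median of the replication genes stood at -0.36 on knockout array 1 and -0.22 on knockout array 2 relative to the wild-type mean. Knockout array 1 lay below both wild-type arrays for 14 of 17 replication genes, and knockout array 2 for 8, which is 82.4% and 47.1%, beside 39.2% and 37.9% of all genes. Knockout array 1 is the one with the highest keratinocyte and muscle markers, and the part of these cells in its lower replication values was not tested. Without that array the replication median was -0.22, and the median over the 4 arrangements that leave out 1 array ran from -0.36 to -0.22. The mitosis genes stood at -0.01 on knockout array 1 and 0.08 on knockout array 2, with 9 and 8 of 18 above both wild-type arrays, beside 34.0% and 31.4% of all genes, and 5 and 4 of 18 below both. The median of the mitosis genes minus that of the replication genes was 0.38, and it stayed above 0 in every alternative tried, from 0.24 to 0.44. These alternatives draw on the same 4 arrays and the same split into classes, made with earlier results of these data known. Medians of other genes of these pathways lay closer together, at 0.04 for mitosis and -0.03 for replication.

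**Figure D4:**
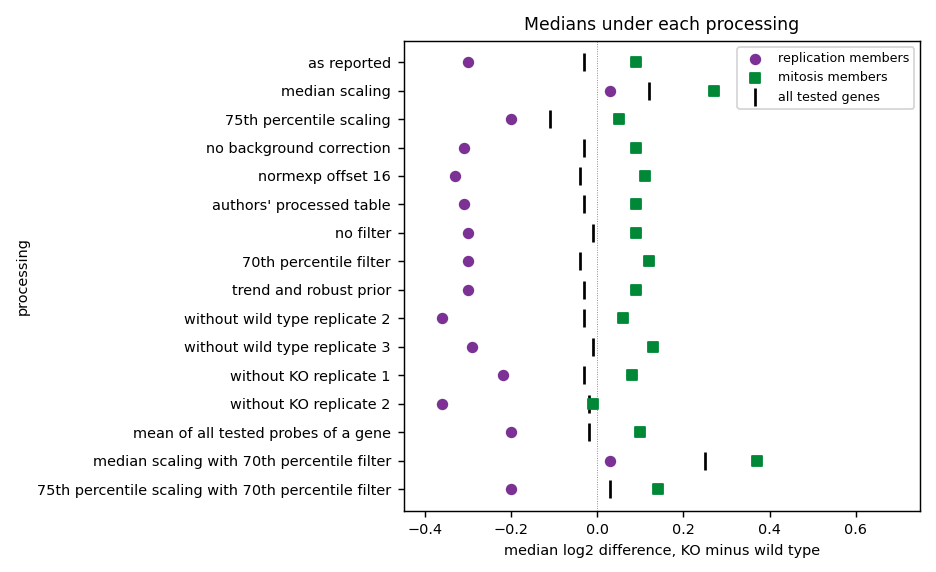
Median difference between knockout and wild-type tumours (log2 scale) of the replication genes, the mitosis genes and all tested genes under each way of processing, 1 row a setting. The mitosis median lies to the right of the replication median in every row, and the replication median is 0.03 under median scaling.

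Other genes of the same pathways, taken from lists of further subunits and pooled by class, had medians near that of all genes. Single lists varied more, and the other spindle genes (0.14) and the anaphase-promoting complex genes (0.11) had medians above the 0.09 of the mitosis members. Of 58 other replication genes tested, 7 were higher and 7 lower in knockout tumours at an unadjusted p under 0.05, which is 12.1% each way, and their median was -0.03. Of 102 other mitosis genes, 9 were higher and 12 lower, which is 8.82% and 11.8%, with a median of 0.04. Cdc7, the kinase that fires loaded origins, had 11.28 and 11.04 in knockout tumours, against 9.65 and 9.55 in wild-type tumours. That difference of 1.56 ± 0.13 (limma adjusted p = 0.102) was beyond that of any of the 35 members, and its activator gene Dbf4 differed by 0.56 ± 0.20, with a second probe at -0.10. At the same stage of replication Gins4, of the active helicase, differed by -0.57 ± 0.13 and Gins3, of the same complex, by 0.38 ± 0.11. At the fork Rnaseh2a (-0.73 ± 0.16) and Rnaseh2b (-0.70 ± 0.17), which encode subunits of the enzyme that removes ribonucleotides from DNA, were both lower. The loader gene Rfc5 was lower (-0.60 ± 0.16), as Rfc4 was, while Chtf18, of an alternative clamp loader, was higher (0.78 ± 0.21). Dctpp1, which breaks down altered nucleotides, had 8.03 and 8.51 in knockout tumours, against 9.43 and 9.72 in wild-type tumours, a difference of -1.31 ± 0.21 (limma adjusted p = 0.125). In the list of other nucleotide and S-phase start genes, E2f1 differed by 0.45 ± 0.13 and E2f3 by -0.38 ± 0.14, both transcription factor genes of S phase. The interval of E2f3, -0.76 to 0.01, included 0, and its other probes stood at 0.13 ± 0.17 and -0.08 ± 0.11 with overlapping groups. Cdk2, the kinase partner of cyclin E, differed by 0.41 ± 0.11 at its brightest probe and by 0.79, 1.02 and 0.56 at its other probes, each higher in both knockout tumours. Its gene lies inside the RefSeq span of the melanocyte gene Pmel, which differed by 0.23 ± 0.11, and whether Pmel adds to the signal of these probes was not tested.

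Of 33 other kinetochore genes, 3 were higher and 6 lower at an unadjusted p under 0.05. These are 9.09% and 18.2%, beside 10.5% and 9.98% of all genes tested. Cenpt, which ties the inner to the outer kinetochore, had 10.37 and 10.19 in knockout tumours, against 9.34 and 9.16 in wild-type tumours, higher by 1.03 ± 0.13 (limma adjusted p = 0.107). Its DNA-binding partner Cenpw went the opposite way, at -0.69 ± 0.13, as did Cenpp at -0.49 ± 0.10 and Mad2l1bp, of checkpoint silencing, at -0.58 ± 0.18. The centromere genes named here thus went both ways. Of 30 other spindle genes 2 were higher and 2 lower, which is 6.67% each way. Ckap2 stood at 0.96 ± 0.22, Nusap1 at -0.51 ± 0.11, and Haus1, of the augmin complex, at -0.74 ± 0.19. Troap was higher by 1.32 ± 0.25 at its brightest probe and stood at -0.28 at its second. Of 28 genes of mitotic chromosomes and control, 2 were higher and 2 lower, which is 7.14% each way. The condensin II gene Ncapd3 stood at 0.57 ± 0.17 and the kinase gene Melk at -0.45 ± 0.11, each near 0 at a second probe. Cdca2 of the same list stood at 0.46 ± 0.14 with a second probe at -0.20, and the kinase gene Pbk at -0.54 ± 0.18. Of 11 subunit genes of the anaphase-promoting complex, 2 were higher and 2 lower, which is 18.2% each way. The higher were Cdc23 (0.41 ± 0.10) and Cdc27 (0.30 ± 0.10), and the lower were Anapc13 (-0.48 ± 0.11) and Cdc26 (-0.43 ± 0.13). Second probes of Cdc23, Cdc27 and Cdc26 had the opposite sign.

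**Figure D5:**
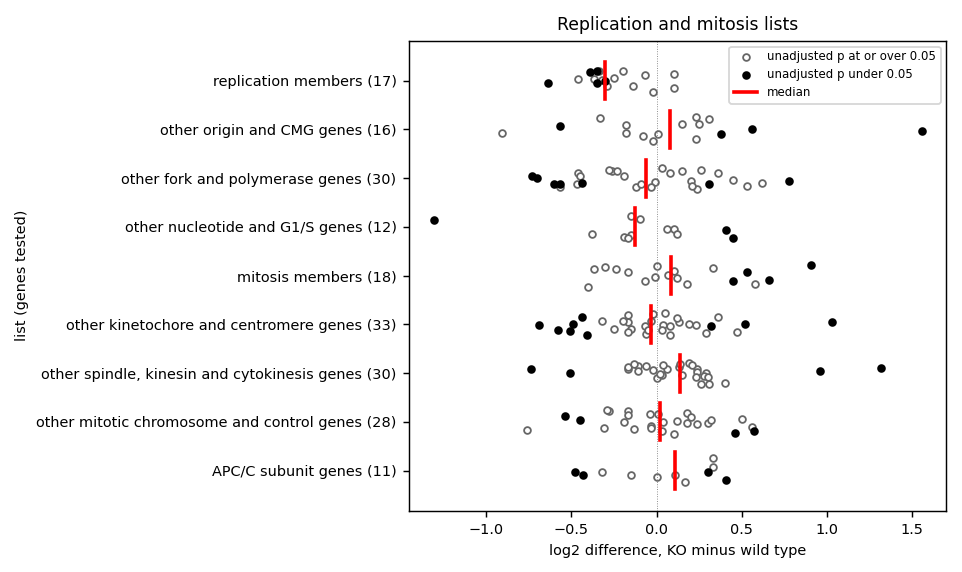
Difference between knockout and wild-type tumours (knockout minus wild type, log2 scale) for the replication members, the mitosis members and 7 lists of other genes of the same pathways, 1 point a gene, filled where the unadjusted p is under 0.05, with a bar at each list's median. The members have medians of -0.30 for replication and 0.09 for mitosis, and the 7 other lists have medians between -0.12 and 0.14.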

How the data were processed

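RNA of 4 tumours was measured on Illumina bead arrays, 1 a tumour, after amplification of 100 ng per the labels. The authors deposited an unnormalized table and a processed table of probe intensity on a linear scale, and array model, scanner software, detection p-values and batches are not given in sources used here. All 46632 processed rows were paired with 1 unnormalized row each by their 4 quantile-normalized values (tolerance 0.001 on the log2 scale), and symbols came from the platform annotation. In limma 3.58.1 (R 4.3.3) unnormalized intensity was background corrected (normexp, offset 50) and quantile normalized, and log2 was taken. Probes with a mean above the 40th percentile (6.07) were kept, 27979 in all. Values run from 5.65 to 14.72, so dim probes are compressed. Differences are knockout minus wild type by lmFit and eBayes, two-sided, with 2 residual and 2.49 prior degrees of freedom and Benjamini-Hochberg adjustment over all kept probes. The labels give 2 mice a genotype, and precision is limited by the number of arrays, 4, since an exact permutation test cannot go below 0.333. Each gene is shown by its brightest probe.

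Of the steps, only the limma fit was tested on simulated data, drawn on the log2 scale. Pairing, background correction, normalization, the filter, the choice of probe and the promoter search were not tested in this way. Python 3.11.15 with numpy 2.4.6, scipy 1.17.1 and pandas 2.3.3 paired the rows and searched the promoters. The rule for named genes took members with an unadjusted p under 0.05 and groups that do not overlap, the 4 brightest of each class, members whose probes disagree in sign by over 0.3, and up to 4 genes of smallest p from each other list. Values per array of further members were added after they were seen. The members and lists were chosen with earlier results of these data known. Alternatives were other scalings, offset, background, filters, prior, the mean of probes, the authors' table and leaving out each array.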

Additional observations from a re-analysis of the deposited data

How the results depend on the processing

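Of 255 values for the 17 genes named by rule, 22 changed sign, and the cause was not tested. Since 0 probes passed the adjusted threshold in the reported fit, values that stayed above it say nothing about stability. The reversals were Ccne1 (0.03), Lig1 (0.01), Tyms (0.29) and Cdc20 (0.07) under median scaling, and Mcm5 (-0.09), Mcm4 (-0.01), Birc5 (-0.02) and Tyms (0.07) under 75th percentile scaling, with the same values when a 70th percentile filter was added. Averaging probes gave 0.05 for Rrm1 and 0.15 for Cdc20, and without wild-type replicate 3 Mcm5 (-0.03), Mcm4 (-0.10) and Tyms (0.30) turned, as Tyms did without knockout replicate 1 (0.06). With 1 array left out, Mcm5 ran from -0.03 to 0.22, Mcm4 from -0.10 to 0.31 and Tyms from -0.43 to 0.30. Members past the adjusted threshold numbered 0 under every alternative that kept all 4 arrays. Replication genes lower at an unadjusted p under 0.05 numbered 5, but 0 under either scaling with or without the added filter, 2 with offset 16, 1 with the 70th percentile filter, 1 with a trended robust prior, 3 with averaged probes and 1 to 7 with 1 array left out. Mitosis genes higher at that level numbered 4, but 2 under 75th percentile scaling with or without the added filter, 2 with averaged probes and 1 to 5 with 1 array left out. Mitosis genes lower numbered 0, but 1 under 75th percentile scaling and 0 to 2 with 1 array left out. Replication genes below 0 numbered 15, but 7 under median scaling with or without the added filter, and 13 to 15 with 1 array left out. The replication median of -0.30 became 0.03 under median scaling and -0.20 under 75th percentile scaling, again with or without the added filter, and ran from -0.36 to -0.22 with 1 array left out. Less the median of all genes it was -0.27, but -0.09 under either scaling and -0.22 with the filter added, and -0.34 to -0.20 with 1 array left out. The mitosis median of 0.09 became 0.27 under median scaling and 0.37 with the added filter, and ran from -0.01 to 0.13 with 1 array left out. Less the median of all genes it was 0.11, and 0.02 to 0.14 with 1 array left out, lowest without knockout replicate 2. The gap between the medians of 0.38 became 0.24 under either scaling, 0.34 with the added filter, 0.44 with offset 16, 0.31 with averaged probes and 0.31 to 0.42 with 1 array left out. The scalings joined to the filter were chosen after seeing the data. Shares of all genes at an unadjusted p under 0.05 are not given for the alternatives. No paired analysis was made because the labels give no pairing between the groups. Signal near the floor of 5.65 limits what dim probes can show.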
